A study of Mus musculus with 6 samples.

Results

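The T cell receptor complex genes were examined as a set of 9 genes, Cd3e, Cd3d, Cd3g, Cd247, Cd4, Cd8a, Cd2, Lck and Zap70, of the 53458 genes in the deposited files. The members were taken by symbol from the annotation, and the estimated reads of their transcripts were summed for each mouse; the rule itself uses no measured value. RNA-seq libraries had been made from acute myeloid leukemia (AML) blasts of 3 Cebpa-/p30 Tet2+/+ mice (mice 19, 23 and 24) and 3 Cebpa-/p30 Tet2-/- mice (mice 5, 7 and 8), to ask how loss of the DNA demethylase TET2 changes a leukemia that is driven by a truncated form of the myeloid transcription factor C/EBPα. Each library came from 1 mouse, and the mice are biological replicates per the labels. All 9 members were detected in all 6 mice, with 15 to 181 reads for a gene in a library, and none differed between the genotypes by the test used.

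Both groups carried the same Cebpa alleles, one allele that makes only the short p30 isoform and one floxed allele that was deleted, and the Tet2-/- group had in addition lost both floxed Tet2 alleles. Per the study's methods, bone marrow of C57BL/6J donors was transplanted into lethally irradiated, congenic C57BL/6J.SJL recipients, and deletion was induced by Poly(I)-Poly(C) through the interferon-responsive Mx1-Cre transgene, which is not restricted to myeloid cells. Marrow was taken from moribund mice, and live donor cells were sorted as DAPI-CD45.2+CD3-B220-Ter119-. The gate removes cells with CD3 on their surface, as well as B cells and erythroid cells, so the transcripts described here were measured in marrow from which T cells with surface CD3 had been sorted away. Cells that hold CD3 RNA or protein inside but not on the surface are not removed by it.

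The T cell receptor is a pair of variable chains that recognises a peptide on an MHC molecule but cannot signal alone. It is held in a complex with the CD3 chains, encoded by Cd3e, Cd3d and Cd3g, and with the zeta chain, encoded by Cd247, whose tails carry immunoreceptor tyrosine-based activation motifs (ITAMs). The kinase LCK, which is carried by the coreceptors CD4 and CD8, phosphorylates the paired tyrosines of an ITAM, the kinase ZAP-70 docks there, and the adhesion receptor CD2 lowers the amount of antigen needed. These genes define T cells in marrow, but Cd247, Zap70, Lck and Cd2 are also used by NK cells, and Cd4, Cd8a and Cd2 by some dendritic cells and macrophages of mice or other mammals.

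The ITAM coding sequences are shown because they are what makes the CD3 and zeta transcripts signalling molecules, and because the transcripts of Cd247 differ in how many they hold. Each was read from the most-read coding transcript of GENCODE M21 (GRCm38) as a tyrosine codon, 2 further codons to a leucine or isoleucine codon, 6 to 8 codons between, and the same again. Capitals mark the 2 tyrosine codons, and the span on the genome includes an intron in every case.
Cd3e, chr9:44999549-45000440, minus strand: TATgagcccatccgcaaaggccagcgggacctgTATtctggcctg
Cd3d, chr9:44986095-44986311, plus strand: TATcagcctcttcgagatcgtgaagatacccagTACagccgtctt
Cd3g, chr9:44970735-44971268, minus strand: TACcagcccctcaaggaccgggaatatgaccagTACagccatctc
Cd247 membrane-proximal, chr1:165856451-165857454, plus strand: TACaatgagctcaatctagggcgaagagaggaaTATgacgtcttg
Cd247 middle, chr1:165858473-165859260, plus strand: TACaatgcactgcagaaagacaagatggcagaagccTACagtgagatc
Cd247 membrane-distal, chr1:165859819-165861042, plus strand: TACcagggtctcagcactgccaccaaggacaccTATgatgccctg

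LCK is held to the coreceptors through paired cysteines that clasp a zinc ion, 1 pair in the tail of CD4 or CD8 alpha and 1 pair near the start of LCK. The codons of these pairs are shown because the transcripts of Cd8a differ in whether they hold the pair. Capitals mark the cysteine codons.
Cd4, chr6:124866275-124866623, minus strand: aagaccTGCcagTGCccccac
Cd8a, chr6:71375899-71376860, plus strand: cgtgttTGCaaaTGTcccagg
Lck, chr4:129558111-129558134, minus strand: gacgtgTGTgaaaacTGCcactat

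Library depth was 16798815, 16900584 and 13036643 reads in mice 19, 23 and 24 and 32855343, 17953277 and 18478656 reads in mice 5, 7 and 8. After a filter on low counts, 22170 genes were tested, and all 9 members passed it. At these depths, levels of the members lay between 0.814 and 10.8 CPM (reads relative to the size of the library, TMM-normalized), and their means over the 6 mice fell between the 44.7 and the 55.5 percentile of the tested genes. The members are therefore low but measured genes, and for a gene with 15 reads counting error alone is large. The gene-level reads of Tet2 do not check the labels, with 83.8 ± 13.0 CPM (SD, n = 3) in Tet2+/+ blasts and 95.8 ± 16.0 CPM (SD, n = 3) in Tet2-/- blasts, since a deleted exon need not lower the reads of the rest of the transcript. Cebpa, altered in both groups, was at 207 ± 74.4 CPM (SD, n = 3) and 119 ± 41.2 CPM (SD, n = 3), with a log2 fold change of -0.80 and an adjusted p of 0.632 by edgeR.

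The CD3 epsilon, delta and gamma genes lie next to each other on chromosome 9. Cd3e encodes the epsilon chain, which is shared by both heterodimers of the complex and is the chain most anti-CD3 antibodies bind (ENSMUSG00000032093, chr9:44998740-45009627, minus strand). It was at 2.03, 2.57 and 3.03 CPM in mice 19, 23 and 24 and at 2.63, 4.24 and 1.14 CPM in mice 5, 7 and 8. Both the highest and the lowest value were in Tet2-/- mice, and the 3 Tet2+/+ values lay inside their range. The means were 2.54 ± 0.498 CPM (SD, n = 3) and 2.67 ± 1.55 CPM (SD, n = 3), the log2 fold change of Tet2-/- over Tet2+/+ was 0.07 with a 95% interval from -1.16 to 1.30, and the adjusted p was 0.986 by edgeR.

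Cd3d, which encodes the delta chain (ENSMUSG00000032094, chr9:44981786-44987339, plus strand), was at 4.96, 2.94 and 4.08 CPM in mice 19, 23 and 24 and at 2.28, 8.36 and 1.63 CPM in mice 5, 7 and 8. Mouse 7 stood above and mice 5 and 8 stood below all 3 Tet2+/+ mice. The means of 3.998 ± 1.01 CPM (SD, n = 3) and 4.09 ± 3.71 CPM (SD, n = 3) gave a log2 fold change of 0.03 (95% interval -1.49 to 1.54, edgeR adjusted p = 0.997). Between mouse 7 and mouse 8 Cd3d differed 5.13-fold, the widest gap between these mice among the 9 members. Without mouse 7 the log2 fold change was -1.02, with an unadjusted p of 0.0484 and an adjusted p of 0.513 by edgeR. Without mouse 8 it was 0.40, in the opposite direction, with an unadjusted p of 0.529 by edgeR.

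Cd3g, which encodes the gamma chain (ENSMUSG00000002033, chr9:44969572-44980431, minus strand), was at 3.17, 2.57 and 3.24 CPM in mice 19, 23 and 24 and at 2.75, 5.79 and 1.30 CPM in mice 5, 7 and 8. The Tet2+/+ mice were close together at 2.99 ± 0.368 CPM (SD, n = 3), whereas the Tet2-/- mice spread over 3.28 ± 2.29 CPM (SD, n = 3). The log2 fold change was 0.13 (95% interval -1.17 to 1.43, edgeR adjusted p = 0.976).

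Cd247 encodes the zeta chain, the part of the complex with the most ITAMs (ENSMUSG00000005763, chr1:165788681-165877277, plus strand). Its levels were 2.21, 1.55 and 2.25 CPM in mice 19, 23 and 24 and 1.65, 3.54 and 1.03 CPM in mice 5, 7 and 8. The order of the Tet2-/- mice was that of Cd3g and Cd3e, with mouse 7 highest and mouse 8 lowest. The log2 fold change was 0.04 (95% interval -1.21 to 1.29, edgeR adjusted p = 0.993).

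At gene level, the 4 CD3 and zeta genes moved together from mouse to mouse rather than with genotype. Summed, they were at 12.4, 9.64 and 12.6 CPM in Tet2+/+ mice and at 9.30, 21.9 and 5.10 CPM in Tet2-/- mice. Part of the Cd247 reads in this sum cannot be told apart from reads of Pou2f1, as described below. On Cd247-201 alone mouse 19 was highest, with 36.2 reads against 31.4 in mouse 7. The proportions of the 4 genes varied less than their sum, with Cd247 taking 16.1% to 20.2% of it and Cd3g 25.5% to 29.6% in the 6 mice. Cd3d took 24.5% to 40.1% and Cd3e 16.4% to 28.2%, and the shares of Cd3d and Cd3e mirrored each other, with Cd3d lowest and Cd3e highest in mouse 5, and the reverse in mouse 19. In bulk RNA, fewer cells of a type and less RNA per cell cannot be told apart.

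**Figure D1:**
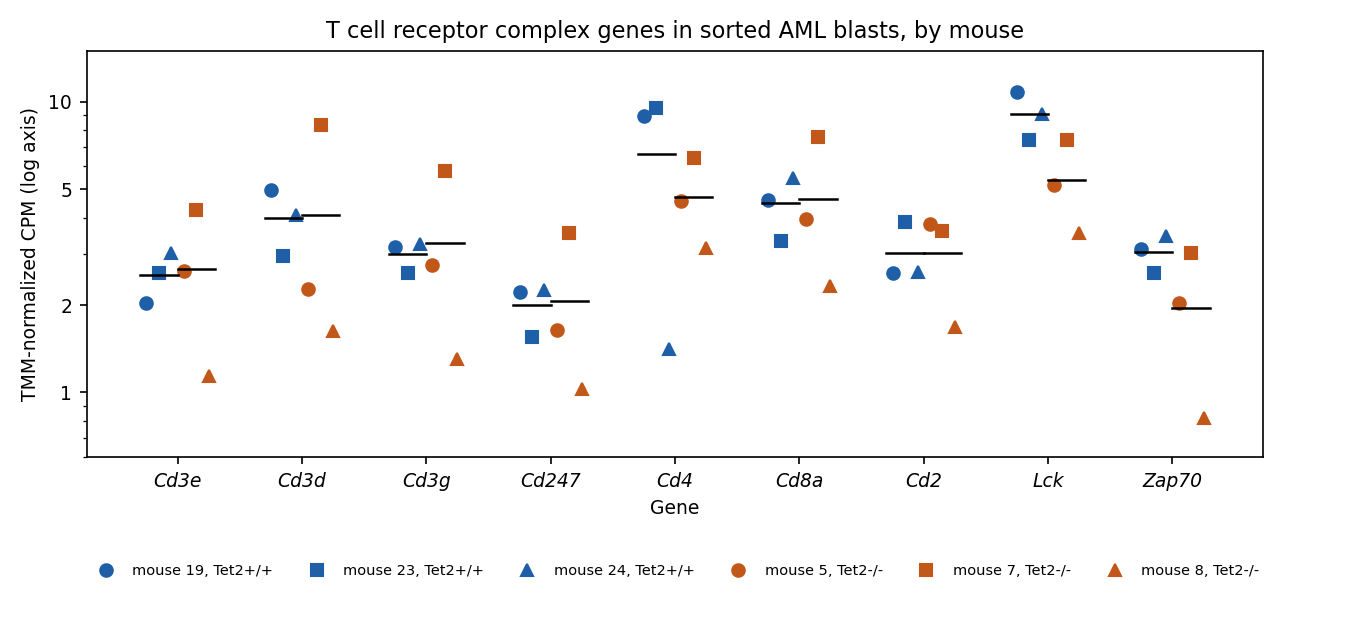
TMM-normalized CPM of the 9 genes on a log axis, with 1 point per mouse, Tet2+/+ in blue, Tet2-/- in orange, and black lines at the mean of 3 mice. Mouse 7 is highest for Cd3e, Cd3d, Cd3g, Cd247 and Cd8a, mouse 8 is lowest for 8 genes, and the genotypes overlap for all 9. Cd247 includes reads that cannot be told apart from those of Pou2f1.

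The coreceptors Cd4 and Cd8a differed from each other in pattern. Cd4, whose product binds MHC class II and which macrophages and dendritic cells can also express, was the most uneven member (ENSMUSG00000023274, chr6:124864692-124888221, minus strand). It was at 8.97, 9.53 and 1.41 CPM in mice 19, 23 and 24 and at 4.56, 6.43 and 3.15 CPM in mice 5, 7 and 8. Mouse 24 had 20 reads against 58 to 178 in the other mice, and it was not the lowest mouse for any other member. The means were 6.64 ± 4.54 CPM (SD, n = 3) and 4.71 ± 1.65 CPM (SD, n = 3), with a log2 fold change of -0.50 (95% interval -2.08 to 1.08, edgeR adjusted p = 0.884). Without mouse 24 the estimate was -0.98, with an unadjusted p of 0.0522 and an adjusted p of 0.9998 by edgeR. Without mouse 23 it was -0.15, with an unadjusted p of 0.855 by edgeR.

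Cd8a, whose product is the alpha chain of the MHC class I coreceptor, followed the CD3 genes (ENSMUSG00000053977, chr6:71373427-71379173, plus strand). It was at 4.61, 3.32 and 5.49 CPM in mice 19, 23 and 24 and at 3.95, 7.59 and 2.33 CPM in mice 5, 7 and 8. Mouse 7 was again the highest and mouse 8 the lowest. The log2 fold change was 0.05 (95% interval -1.09 to 1.19, edgeR adjusted p = 0.990).

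Cd2, which encodes the adhesion receptor that binds CD48 on mouse cells (ENSMUSG00000027863, chr3:101275899-101287939, minus strand), was the most even member. Its levels were 2.57, 3.85 and 2.61 CPM in mice 19, 23 and 24 and 3.80, 3.60 and 1.68 CPM in mice 5, 7 and 8. The highest mouse exceeded the lowest 2.29-fold, against 6.77-fold for Cd4. The genotype means of 3.01 ± 0.731 CPM (SD, n = 3) and 3.03 ± 1.17 CPM (SD, n = 3) gave a log2 fold change of 0.01 (95% interval -1.02 to 1.03, edgeR adjusted p = 0.998).

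The kinases Lck and Zap70 were, with Cd4, the members with estimates below 0. Lck encodes the Src family kinase that starts receptor signalling (ENSMUSG00000000409, chr4:129548344-129573641, minus strand), and it was at 10.8, 7.39 and 9.08 CPM in mice 19, 23 and 24 and at 5.19, 7.39 and 3.53 CPM in mice 5, 7 and 8. Mice 5 and 8 were below all Tet2+/+ mice and mouse 7 was level with mouse 23, so that the groups just met. The means were 9.10 ± 1.72 CPM (SD, n = 3) and 5.37 ± 1.94 CPM (SD, n = 3), with a log2 fold change of -0.76 (SE 0.35, 95% interval -1.59 to 0.07). This was the lowest p of the 9 members, 0.0665 unadjusted and 0.642 adjusted by edgeR, and an exact two-sided permutation test gave 0.2, where 0.1 is the smallest that 3 mice against 3 allow. Without mouse 7 the estimate was -1.05, with an unadjusted p of 0.0195 and an adjusted p of 0.484 by edgeR. Without mouse 8 it was -0.54 and without mouse 19 it was -0.62, with unadjusted p of 0.170 and 0.184 by edgeR.

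Zap70, the kinase that docks on phosphorylated ITAMs (ENSMUSG00000026117, chr1:36761798-36782818, plus strand), was at 3.11, 2.57 and 3.45 CPM in mice 19, 23 and 24 and at 2.02, 3.02 and 0.814 CPM in mice 5, 7 and 8. The lowest value, in mouse 8, rested on 15 reads. The means were 3.04 ± 0.444 CPM (SD, n = 3) and 1.95 ± 1.11 CPM (SD, n = 3), with a log2 fold change of -0.64 (95% interval -1.85 to 0.57, edgeR adjusted p = 0.795, exact two-sided permutation p = 0.2).

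Of the 9 members, 0 were called lower in Tet2-/- blasts, beside 0.0451% of all genes tested, and 0 were called higher, beside 0% of all genes. At an unadjusted p under 0.05, 0 members were called, beside 8.11% of genes, and DESeq2 on the same counts also called 0. In 0 of 9 members were the genotypes free of overlap, beside 14.4% of genes. Estimates were below 0 for 3 members and above 0 for 6, and their median log2 fold change was 0.03 against 0.00 over all genes. The intervals bound the difference: they include a fold of 2 in both directions for 7 members, whereas that of Lck runs from 0.332-fold to 1.05-fold and that of Zap70 from 0.277-fold to 1.49-fold. A miss of the threshold does not show equal levels.

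**Figure D2:**
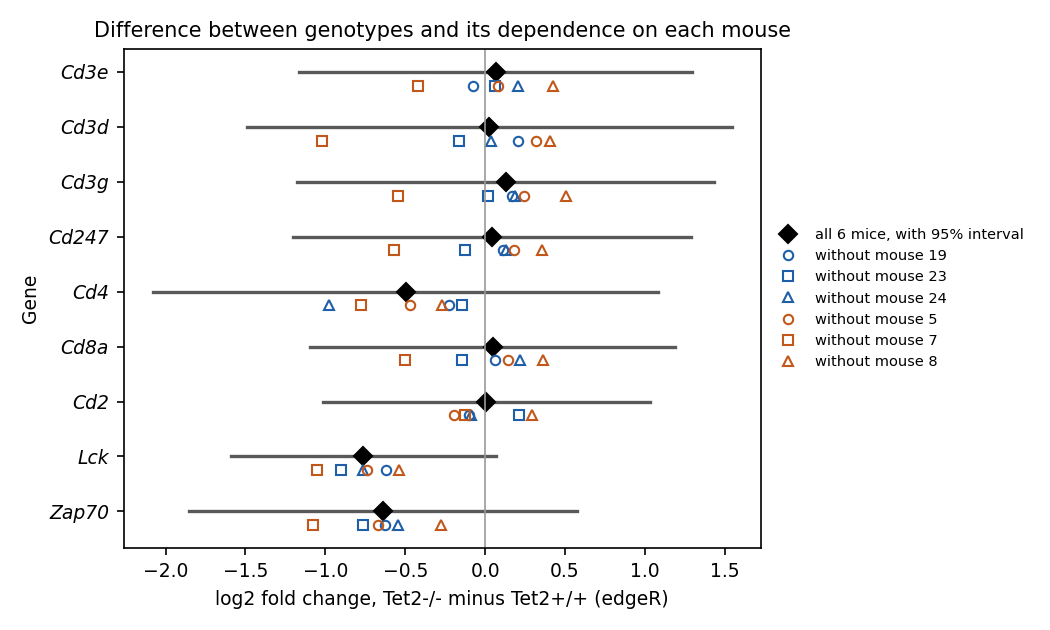
The log2 fold change of each gene, Tet2-/- over Tet2+/+, from edgeR on 6 mice (diamond) with its 95% interval (bar), and the estimate after leaving out each mouse in turn (open symbols, blue for Tet2+/+ and orange for Tet2-/- mice). All intervals include 0, and without mouse 7 all 9 estimates lie below 0.

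Mice 7 and 8 were the extremes of the Tet2-/- group for all members but Cd2, for which mouse 5 was the highest of that group. Over the 6 mice, mouse 8 had the lowest level for 8 members (all but Cd4) and mouse 7 the highest for 5, and mouse 7 exceeded mouse 8 by 2.04-fold (Cd4) to 5.13-fold (Cd3d). Summed over the 9 members, levels were 42.5, 36.3 and 34.6 CPM in Tet2+/+ mice and 28.8, 49.96 and 16.6 CPM in Tet2-/- mice. Without mouse 7 all 9 estimates were below 0, with a median of -0.57. Without mouse 8 the median was 0.36, and leaving out mouse 19, 23, 24 or 5 left 4 to 6 estimates below 0. Scaling by library size alone also turned all 9 estimates below 0, but it moved the median of all genes to -0.17.

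**Figure D3:**
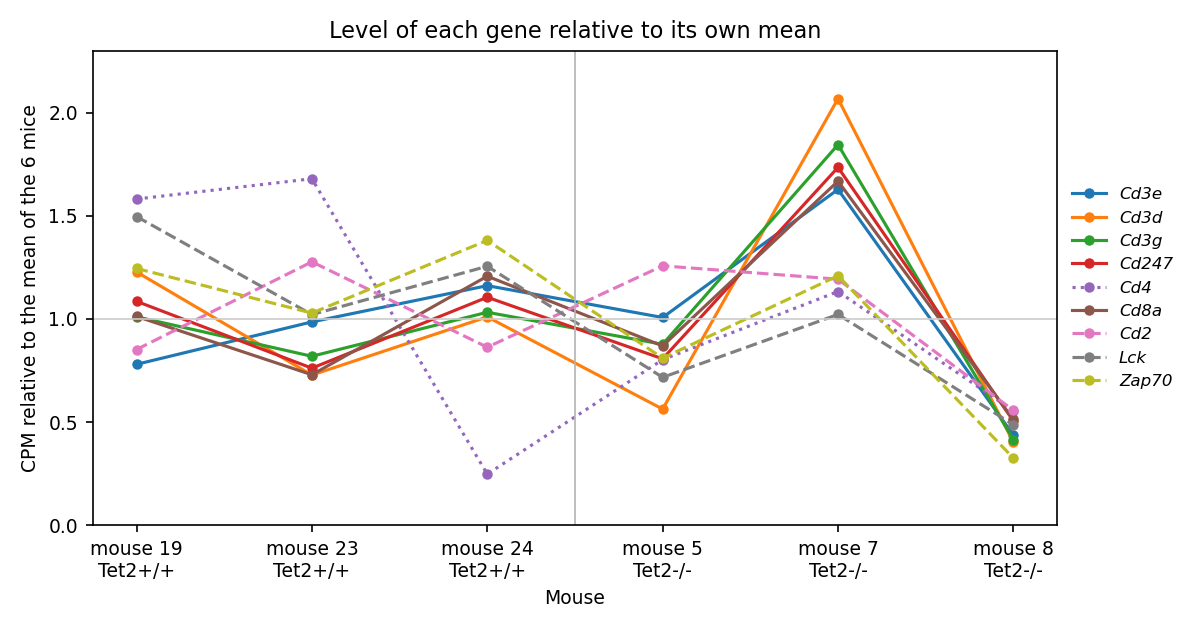
Level of each gene in each mouse divided by its own mean over the 6 mice, so that 1 is the mean. The CD3 genes, Cd247 and Cd8a (solid lines) peak in mouse 7 and are lowest in mouse 8, Cd2, Lck and Zap70 (dashed) are also lowest in mouse 8, and Cd4 (dotted) is lowest in mouse 24. Cd247 includes reads that cannot be told apart from those of Pou2f1.

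To describe how alike the members were, the log2(CPM + 0.5) of each gene was centred over the 6 mice and compared with the mean profile of Cd3e, Cd3d, Cd3g and Cd247. The root mean square difference was 0.0605 for Cd3g, 0.0980 for Cd247, 0.207 for Cd3e and 0.232 for Cd3d, which make up that mean. It was 0.112 for Cd8a, which is not part of that mean, and 0.309 for Zap70, 0.3998 for Lck, 0.423 for Cd2 and 0.888 for Cd4. Cd3e and Cd3d thus lay farther from the mean than Cd8a did. The median over 13830 other genes averaging 1 CPM or more was 0.626, so Cd4 was less like the CD3 genes than a typical gene was. The 5 non-members with the closest profiles were 4930451G09Rik (0.0869), Gm43039 (0.101), Vsig10l (0.106), Trim12a (0.115) and Tbc1d10c (0.121). With 6 mice, of which 1 is high and 1 low, such a ranking is a description, and the closest genes include some far more abundant than the members, such as Trim12a at 39.1 to 103 CPM.

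Levels of different genes were compared per length, as the deposited TPM (Salmon transcript abundance scaled by effective length) of the most-read transcript of each gene. Means over the 6 mice were 1.72 ± 0.861 TPM (SD, n = 6) for Cd3g, 1.43 ± 0.507 for Lck, 1.42 ± 0.378 for Cd2, 1.39 ± 0.762 for Cd3d, 0.924 ± 0.362 for Cd3e, 0.879 ± 0.514 for Cd4, 0.481 ± 0.265 for Cd247, 0.397 ± 0.239 for Zap70 and 0.348 ± 0.204 for Cd8a. Each gene differed from its neighbour in that order by less than the larger of their SDs between mice. Cd247 and Cd8a, whose reads are divided among several coding transcripts, stood among the lowest on this scale. TPM summed over all transcripts of a gene was higher for some genes through very short transcripts, for Cd4 with a mean of 6.36 TPM through a 273-base noncoding transcript that held 5.42% of its reads, and for Cd3d with a mean of 5.88 TPM through transcripts of 286 and 299 bases.

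Most reads of the members fell on protein-coding transcripts, from 71.6% for Zap70 and 72.9% for Cd8a to 95.7% for Cd3d. The rest fell on annotated transcripts that retain an intron or are processed but noncoding. For Cd4 the latter held more reads (5.42% and 0.519% in 2 transcripts) than the former (3.48% and 1.71%). For Zap70 the share on coding transcripts was 42.2% in mouse 19 and 57.6% in mouse 8, against 72.3% to 91.3% in the other mice. A retained-intron transcript of Zap70 took 57.8% of the reads in mouse 19, where Zap70-201, which encodes the whole kinase, held 17.0 of 52 reads.

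Lck has 2 promoters in T lineage cells, a proximal one used most in thymocytes and a distal one used in both thymocytes and mature T cells, and transcripts from both encode the same kinase. In GENCODE M21 the distal start is that of Lck-202 at position 129573641 of chromosome 4, and the proximal starts are at positions 129558391 (Lck-201) and 129558372 (Lck-206 and Lck-208). In mouse 19, 99.5 reads were assigned to the distal and 75.6 to the proximal starts, a distal share of 56.8% (95% Wilson interval 49.4% to 63.9%). The distal share was 93.8% in mouse 23 (88.3% to 96.8%), 96.0% in mouse 5 (91.1% to 98.1%) and 100% in mice 24, 7 and 8, with 0 proximal reads beside 111, 90.2 and 55.4 distal ones. Intervals cover counting error only, not the uncertainty of assigning reads among transcripts that share most of their exons. Mouse 19 thus differed from the other 5 mice in its share of proximal Lck transcripts by more than counting error, and the other 2 Tet2+/+ mice did not share it.

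Cd247-201, the zeta transcript with 3 ITAMs in 164 codons, held 61.4% of the reads of Cd247. The other coding transcripts with reads, Cd247-202 with 17.9% and a transcript of 1816 bases with 10.1%, keep 2 of the ITAMs and end on a different exon, as the eta form does. Of their bases, 59.4% and 73.0% lie inside exons of Pou2f1, which is transcribed from the opposite strand and encodes the widely expressed factor OCT-1, whereas 0% of Cd247-201 does. The library kit does not keep strand, so reads of Pou2f1 and of these Cd247 ends cannot be told apart. On Cd247-201 alone the mice had 36.2, 19.6 and 24 reads (mice 19, 23 and 24) and 20.1, 31.4 and 6.81 reads (mice 5, 7 and 8), in TPM 0.613 ± 0.176 (SD, n = 3) and 0.3501 ± 0.305 (SD, n = 3). Mouse 8 was again the lowest, and on this transcript mouse 19 rather than mouse 7 was the highest.

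Cd8a-201, whose 247 codons include the LCK-binding cysteine pair, held 41.4% of the reads of Cd8a, and Cd8a-202, which has 222 codons and lacks the pair, held 31.5%. The shorter form is the alpha-prime chain. Their split was uneven, since all 43.1 reads of mouse 8 were assigned to Cd8a-201, and mouse 24 had 56.8 reads on Cd8a-202 and 0 on Cd8a-201. A retained-intron transcript took the other 27.1%. The transcripts share most of their sequence, and with at most 125 reads per mouse on the gene the assignment between them rests on few reads.

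**Figure D4:**
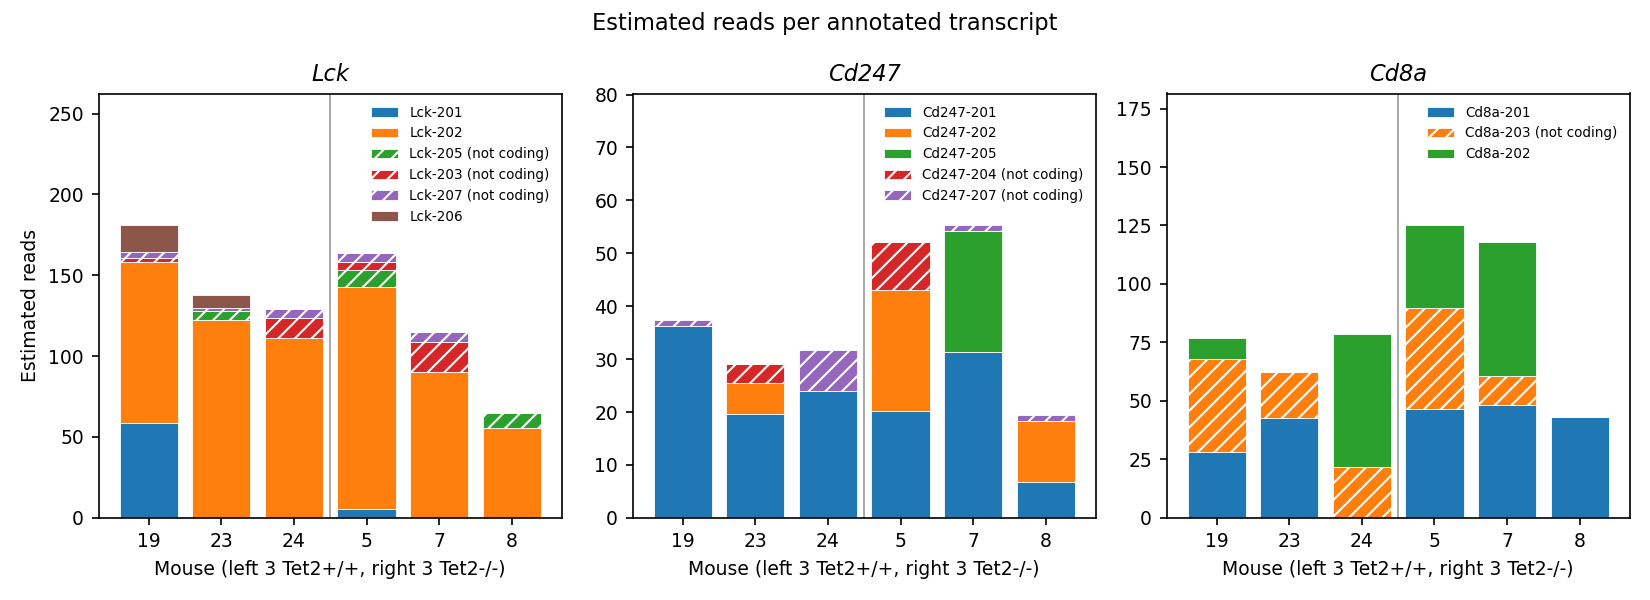
Estimated reads of each annotated transcript of Lck, Cd247 and Cd8a in the 6 mice, stacked, with hatching for transcripts that are not protein-coding. The proximal Lck transcripts (Lck-201 and Lck-206) are sizeable in mouse 19 only, the Cd247 forms that end on a different exon appear in 4 mice, and the 2 coding forms of Cd8a trade places between mice.

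Sequence shared with other genes was small for most members. Of the 31-base words of the most-read transcript, 0% occurred in a transcript of another gene for Cd3g, Cd2, Lck and Zap70, 0.357% for Cd4, 2.97% for Cd8a and 3.49% for Cd3d. Words of Cd3e (7.40%) and of Cd247 (10.5%) were shared with the predicted genes Gm48719 and Gm16565, which overlap them.

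The promoters of the CD3 genes, Cd247 and Lck are shown because the CD3 genes and Cd247 moved together between mice at gene level, and because Lck has 2 starts. RefSeq (GRCm38.p6) gave 10 promoters for 7 of the members, and none was matched for Cd4 and Cd2. Each line holds the 250 bases before a start, 5′ to 3′ on the gene's strand, and capitals mark short cores bound by 4 families of T cell transcription factors, spelled out after the sequences and searched on either strand.
Cd3e, chr9:45009612-45009861, minus strand: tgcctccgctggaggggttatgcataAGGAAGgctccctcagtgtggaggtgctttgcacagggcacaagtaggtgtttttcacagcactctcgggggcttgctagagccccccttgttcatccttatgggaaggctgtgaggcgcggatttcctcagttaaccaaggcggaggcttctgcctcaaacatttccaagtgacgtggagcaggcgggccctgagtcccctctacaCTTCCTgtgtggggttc
Cd3d, chr9:44981536-44981785, plus strand: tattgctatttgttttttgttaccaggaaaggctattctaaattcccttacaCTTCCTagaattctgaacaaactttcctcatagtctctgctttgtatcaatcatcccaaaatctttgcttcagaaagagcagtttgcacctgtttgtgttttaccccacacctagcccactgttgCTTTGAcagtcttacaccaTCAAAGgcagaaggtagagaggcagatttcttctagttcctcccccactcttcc
Cd3g, chr9:44980432-44980681, minus strand: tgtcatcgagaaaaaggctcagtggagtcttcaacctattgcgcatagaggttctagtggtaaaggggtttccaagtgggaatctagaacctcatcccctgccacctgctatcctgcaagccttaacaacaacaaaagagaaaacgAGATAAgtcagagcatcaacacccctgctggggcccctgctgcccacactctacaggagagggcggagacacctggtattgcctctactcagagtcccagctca
Cd247, chr1:165788431-165788680, plus strand: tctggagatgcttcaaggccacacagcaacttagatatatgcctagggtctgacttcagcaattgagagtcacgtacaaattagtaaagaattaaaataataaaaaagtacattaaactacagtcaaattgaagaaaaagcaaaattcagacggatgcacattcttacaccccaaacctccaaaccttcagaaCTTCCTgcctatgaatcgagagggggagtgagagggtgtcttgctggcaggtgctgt
Lck distal, chr4:129573642-129573891, minus strand: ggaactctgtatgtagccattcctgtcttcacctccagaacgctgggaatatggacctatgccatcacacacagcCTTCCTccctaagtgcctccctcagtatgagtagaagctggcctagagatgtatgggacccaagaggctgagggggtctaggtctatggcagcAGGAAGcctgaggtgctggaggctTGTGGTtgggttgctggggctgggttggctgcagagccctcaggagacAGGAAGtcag
Lck proximal, chr4:129558373-129558622, minus strand: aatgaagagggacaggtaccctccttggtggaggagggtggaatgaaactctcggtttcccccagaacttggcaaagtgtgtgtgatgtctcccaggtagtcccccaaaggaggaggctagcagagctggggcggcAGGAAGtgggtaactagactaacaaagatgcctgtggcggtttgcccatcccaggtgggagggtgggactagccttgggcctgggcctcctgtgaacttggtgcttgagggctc

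The ETS core, AGGAAG, was in the promoters of Cd3e (2 times), Cd3d (1), Cd247 (1) and both Lck promoters (3 times in the distal, 1 in the proximal), and in 29.5% of all 32851 promoters of that length. Of these 6 windows, the RUNX core, TGTGGT, was in the distal Lck promoter only, beside 14.1% of all promoters. The GATA core, AGATAA, was in that of Cd3g only, beside 9.99% of all. The TCF and LEF core, CTTTGA, was 2 times in that of Cd3d and in none of the other 5, beside 13.8% of all. No 2 of these cores overlap in the windows shown. CpG dinucleotides, the sites that TET enzymes act on, numbered 7 in Cd3e, 4 in Cd3g, 3 in Cd247, 1 in the distal and 3 in the proximal Lck promoter, 6, 2 and 7 in those of Zap70, and 0 in Cd3d and Cd8a, against a median of 6. No methylation data were used here, and a match or its absence says only whether these letters are in the window.

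The antigen-binding chains themselves were examined beside the members, since CD3 reaches the surface only with them. The annotation holds 8 T cell receptor constant genes, and 7 or 8 of them had reads in each mouse. Trac, the alpha constant gene, was at 4.01, 2.68 and 4.15 CPM in mice 19, 23 and 24 and at 2.09, 3.54 and 1.25 CPM in mice 5, 7 and 8 (log2 fold change -0.66, edgeR adjusted p = 0.766). Its lowest mouse, mouse 8, was also the lowest for the CD3 genes. Trbc2, a beta constant gene, was at 4.73, 5.46 and 5.77 CPM and at 3.70, 5.47 and 2.60 CPM in the same order (log2 fold change -0.44, edgeR adjusted p = 0.802). Of the gamma and delta constant genes, Tcrg-C2 was the highest at 0.543 to 2.25 CPM, Tcrg-C3 had at most 3.33 reads in a mouse, and Trdc was at 0.658, 1.61 and 0.704 CPM in Tet2+/+ mice and 0.380, 0.450 and 0.326 CPM in Tet2-/- mice without overlap (edgeR adjusted p = 0.604).

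Trbc1, the other beta constant gene, was at 51.1 CPM in mouse 19 and at 2.01 to 9.19 CPM in the other 5 mice. Mouse 19 had 854 reads of it, against 36.6 to 156 in the others, while its Trac, Trbc2 and CD3 levels were within the range of the other mice. The Trbj1 joining segments, which lie just before Trbc1, showed the same over 7 genes. They were at 9.87 CPM (165 reads) in mouse 19 and at 0.348 to 1.22 CPM (9 to 19 reads) in the others. The 7 Trbj2 segments before Trbc2 were also highest in mouse 19, but at a lower level. They were at 0.778 CPM (13 reads) in mouse 19 and at 0.0643 to 0.348 CPM (1 to 11 reads) in the others. The Trbj1 segments and the comparison with Trbj2 were chosen after the values were seen. Over the genotypes Trbc1 gave a log2 fold change of -1.94 with an edgeR adjusted p of 0.668, an estimate that rests on mouse 19. Trbc1 and Trbc2 are near-identical copies, so reads can be split between them by the authors' counting.

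Reads of variable segments were spread over many genes. Of 129 annotated variable genes (pseudogenes left out), 27 to 55 had a read in each mouse and 95 in any, and together they were at 8.55, 7.71 and 11.5 CPM in Tet2+/+ mice and at 6.20, 10.9 and 3.80 CPM in Tet2-/- mice. Mouse 8 was again the lowest. Of all 254 receptor genes and segments, 44 passed the filter and 0 were called by edgeR, while 3 were lower at an unadjusted p under 0.05, beside 5.12% of all genes. These were Trdc, Trbj1-2 and Trbj1-7, and mouse 19 held 35 of the reads of Trbj1-2 and 14 of those of Trbj1-7, against at most 6 and 1 in another mouse. Of the 44 estimates 33 were below 0 (75%, beside 49.9% of all genes), with a median log2 fold change of -0.64, or -0.45 with 16 genes at the limit that 3 reads set and 2 left out for being at it in both genotypes. The reads per segment are too few to describe a repertoire.

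**Figure D5:**
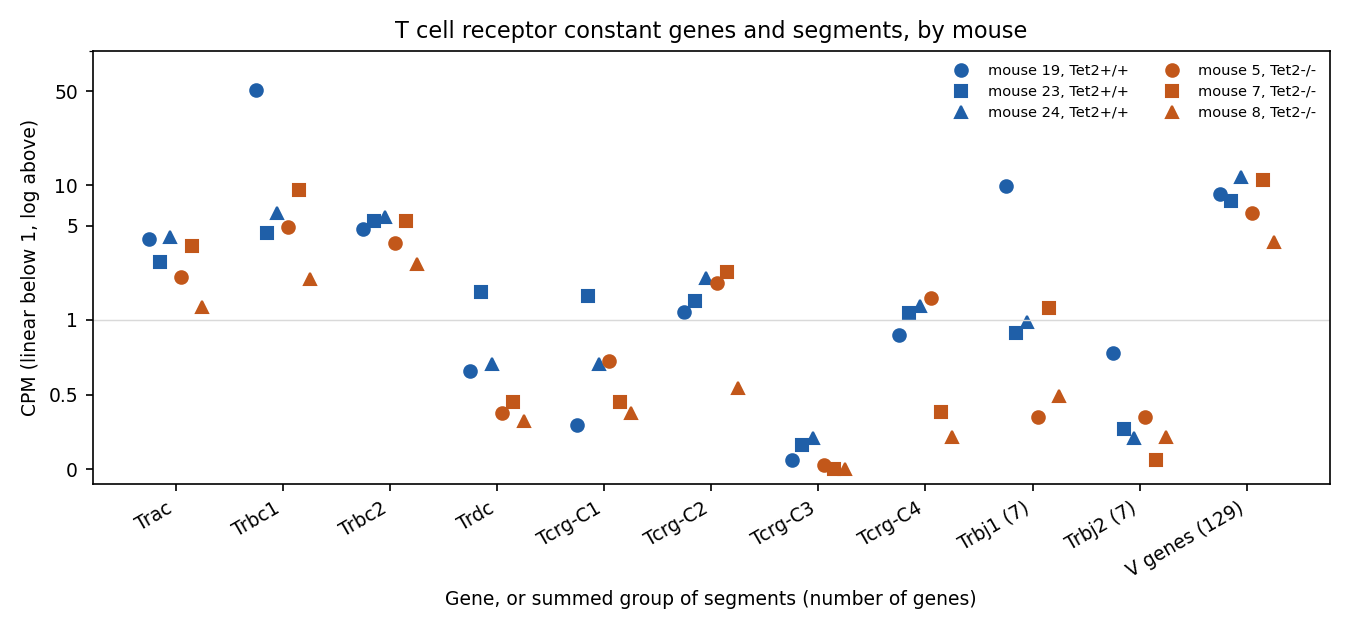
CPM of the 8 T cell receptor constant genes and of summed joining and variable segments in each mouse, on an axis that is linear below 1 and logarithmic above. Mouse 19 stands apart for Trbc1 and for the summed Trbj1 segments, and mouse 8 is the lowest for Trac, Trbc1, Trbc2, Tcrg-C2 and the variable genes.

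The wider receptor pathway was read from a list of 40 signalling partners, all tested. Of them 0 were called by edgeR in either direction, 3 were lower at an unadjusted p under 0.05, beside 5.12% of all genes, and the median log2 fold change was -0.07 against 0.00 over all genes. The most abundant were genes that myeloid cells use as well, namely Ptprc (CD45), the phosphatase that keeps LCK active, at 856 ± 47.4 and 959 ± 236 CPM (SD, n = 3 each), Ptpn6 (SHP-1) at 542 ± 62.1 and 565 ± 149 CPM, Sla, an adaptor that dampens receptor signalling, at 336 ± 64.9 and 482 ± 74.8 CPM, and the exchange factor Vav1 at 226 ± 17.5 and 285 ± 42.1 CPM, in Tet2+/+ and Tet2-/- blasts in that order. DESeq2 called 1 gene of the list, Plcg1, as lower, beside 1.47% of all genes. Plcg1, the phospholipase recruited by LAT, is named here after its values were seen, as are all genes named after it in this paragraph. It was at 31.2, 31.9 and 40.8 CPM in Tet2+/+ mice and at 13.3, 19.9 and 14.1 CPM in Tet2-/- mice, with a log2 fold change of -1.14, an adjusted p of 0.267 by edgeR and 0.00689 by DESeq2. Lat, an adaptor that ZAP-70 phosphorylates, was at 14.3, 6.80 and 9.44 CPM and at 2.91, 5.08 and 1.68 CPM, without overlap, with a log2 fold change of -1.66 and adjusted p of 0.497 by edgeR and 0.0640 by DESeq2. Lcp2 (SLP-76), another adaptor that ZAP-70 phosphorylates, lay in the opposite direction, also without overlap, at 159 ± 13.4 and 208 ± 31.04 CPM (SD, n = 3 each), with a log2 fold change of 0.38 and an adjusted p of 0.643 by edgeR. It was far more abundant than Lat. Txk was at 4.25 ± 1.13 and 2.01 ± 0.381 CPM (SD, n = 3 each), with a log2 fold change of -1.07 and an adjusted p of 0.578 by edgeR. Plcg1, Txk, Prkcq, Cd27, Trat1, Thy1, Themis and Lax1 were also lower without overlap, and Sla, Csk and Vav1 higher. Of all genes tested, 14.4% were without overlap.

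Among 17 tested transcription factors and thymocyte genes of the T lineage, edgeR called 0, and the median log2 fold change was -0.55. Before adjustment, p was under 0.05 for 3 lower genes and 1 higher gene, beside 5.12% and 3% of all genes. The lower ones, named after their values were seen, were Gata3 (log2 fold change -1.20), Dntt (-4.13) and Rag2 (-2.66). Their levels were low, at 0.380 to 1.55 CPM for Gata3 and 0 to 1.34 CPM for Dntt. The higher one was Zbtb7b. Zbtb7b, which directs CD4 fate in thymocytes, was at 113 ± 6.82 and 169 ± 31.6 CPM (SD, n = 3 each) in Tet2+/+ and Tet2-/- blasts (edgeR adjusted p = 0.527). Runx3, which directs CD8 fate, was at 51.5 ± 4.92 and 44.3 ± 7.46 CPM, and Tcf7 at 9.75 ± 2.40 and 11.02 ± 5.12 CPM. Zbtb7b and Runx3 lay above the 0.814 to 10.8 CPM of the members, and which cells their reads came from was not tested. Satb1, a chromatin organiser of thymocytes that myeloid progenitors also express, was at 65.7, 73.4 and 66.0 CPM in mice 19, 23 and 24, at 64.1 and 101 CPM in mice 5 and 7, and at 1.90 CPM in mouse 8, the mouse in which 8 of the members were lowest. DESeq2 called 1 gene of this list, the recombinase gene Rag2 (named here after its values were seen), which was lower in Tet2-/- blasts, beside the same 1.47% of all genes.

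Markers of other cells were set beside these values. They include markers of B cells and erythroid cells, which the gate is meant to remove. NK cell and cytotoxic markers (17 tested, 0 called by edgeR, 3 lower at an unadjusted p under 0.05 beside 5.12% of all genes, median log2 fold change -0.63) summed to 952 to 1179 CPM in Tet2+/+ and 1128 to 1292 CPM in Tet2-/- mice, mostly from Tyrobp, Fcer1g and Nkg7, which myeloid cells use too. The sum thus says little of the other markers. Of the 17 estimates, 14 were below 0 (82.4%, beside 49.9% of all genes). Of the NK receptors, Ncr1, chosen after its values were seen, was at 4.49, 3.64 and 5.35 CPM in mice 19, 23 and 24 and at 1.42, 1.16 and 0.488 CPM in mice 5, 7 and 8, with an adjusted p of 0.321 by edgeR and 0.00264 by DESeq2, the 1 gene of the list that DESeq2 called, beside 1.47% of all genes called lower. Over the 17 genes, mouse 7, highest for the CD3 genes, was the highest for 3, second highest for 4, second lowest for 7 and lowest for 2. Il2rb, a receptor chain shared by NK and T cells, was at 22.6 to 63.0 CPM in Tet2+/+ and 6.95 to 22.0 CPM in Tet2-/- mice without overlap (edgeR adjusted p = 0.604).

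B cell markers (10 tested, 0 called by edgeR, median -0.52) summed to 32.8 to 93.7 CPM in Tet2+/+ and 26.2 to 72.7 CPM in Tet2-/- mice, with the lowest sum in mouse 7. Plasmacytoid dendritic cell markers (9 tested, 0 called by edgeR, median -0.44) summed to 110 to 170 CPM and 117 to 191 CPM. DESeq2, which called 1.47% of all genes lower and 0.267% higher, called 2 of them, named here after their values were seen, Siglech as lower (log2 fold change -2.42 by edgeR, adjusted p = 0.185 by edgeR and 0.00102 by DESeq2) and Atp1b1 as higher (2.19, 0.344 and 0.00492). Conventional dendritic cell markers (12 tested, 0 called by edgeR and by DESeq2, median -0.19) summed to 631 to 1206 CPM and 778 to 864 CPM. Monocyte and macrophage markers (12 tested, 0 called by edgeR, median 0.68) summed to 1706 to 2994 CPM and 2491 to 4904 CPM, highest in mouse 8, and among them Csf1r was at 87.4 CPM in mouse 7 and 749 CPM in mouse 8. Of this list DESeq2 called 1 gene, Ly6c2, as higher (1367 ± 292 and 2537 ± 436 CPM, SD, n = 3 each, adjusted p = 0.512 by edgeR and 0.0248 by DESeq2), and the genotypes did not overlap. Granulocyte progenitor markers (10 tested, 0 called by edgeR and by DESeq2, median 0.30) summed to 7393 to 9411 CPM and 6978 to 9954 CPM. Erythroid markers (7 tested, 0 called by edgeR and by DESeq2, median -2.21, or -2.04 with 1 gene at the limit that 3 reads set) were at 145 CPM in mouse 19 and at 5.77 to 15.2 CPM in the other mice. The sums in mice 23 and 24, 6.16 and 5.77 CPM, were below those in mice 5, 7 and 8, 14.2, 15.2 and 7.71 CPM. The median of this list without mouse 19 was not computed. The part of these cells in the levels of the members was not tested.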

How the data were processed

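RNA-seq libraries of 6 mice were used. Per the study's methods and the labels, TruSeq RNA v2 libraries, which do not keep strand, were sequenced on a NextSeq 500 and quantified with Salmon 0.12.0 (per the submitters' processing notes) against Ensembl transcripts of GRCm38. The estimated count of reads per transcript was deposited by the authors without normalization between mice, and the authors also deposited TPM, in which Salmon divides by effective length. Transcript lengths came with them.

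Estimated counts were summed to GENCODE M21 genes (112 transcripts without a gene, at most 0.0416% of reads, were left out) and rounded. Genes with a sum of 10 or more over the mice, after scaling by library size, entered edgeR 4.0.16's quasi-likelihood fit (R 4.3.3, TMM, Benjamini-Hochberg over 22170 genes, threshold 0.05) without covariates, and by exact permutation over the 6 mice. The biological coefficient of variation was 43.6%. With 13036643 to 32855343 reads per library, a member had 15 to 181 reads. Alternatives were DESeq2 1.42.0, length-scaled counts, other scaling, other filters, protein-coding transcripts only and leaving out each mouse. TPM of the most-read transcript was added after seeing the data. CPM are TMM-normalized, and for list medians a gene with at most 3 reads in every mouse of a genotype was also set to that limit. Wilson intervals (SciPy 1.17.1) are at 95%.

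Beside the members, the genes to be named were those past the threshold or otherwise the 4 most abundant of each list, the constant genes and the 5 nearest profiles, and others are marked. Not all of these are given. No gene is named for the B cell, conventional dendritic cell, granulocyte progenitor and erythroid lists, and only some for the plasmacytoid dendritic cell and monocyte lists. The members and lists were chosen with earlier results of these data known. The labels give no batch, and other data of the study were not used here. Tables were handled with Python 3.11.15 and pandas 2.3.3, and figures drawn with matplotlib 3.10.9.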

Additional observations from a re-analysis of the deposited data

How the results depend on the processing

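No member was called under any of the 8 other settings or the 6 fits without 1 mouse (adjusted p between 0.484 and 0.9998). Over all genes, the main fit called 10 genes lower and 0 higher (1799 at an unadjusted p under 0.05), DESeq2 called 326 lower and 59 higher, DESeq2 on length-scaled counts 322 and 64, edgeR on length-scaled counts 5 lower, edgeR without a filter 62 and 4, edgeR on protein-coding transcripts 1 lower, and RLE factors and filterByExpr 1 higher each. Leaving out 1 mouse gave 0 to 7 lower and 0 higher. The cause of these differences was not tested. Lck stayed below 0 in all of these fits (-1.11 to -0.54), as did Zap70 (-1.08 to -0.28) and Cd4 (-0.98 to -0.15). Lck had an unadjusted p under 0.05 with library size only, on protein-coding transcripts, with DESeq2 on length-scaled counts and without mouse 7. On length-scaled counts 6 of the 9 estimates were below 0. No paired analysis was possible because the mouse numbers are not shared between the genotypes. The precision is limited, since the intervals of 7 members reach from under 0.5-fold to over 2-fold.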

Other observations

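Retained-intron transcripts took reads of all 9 members over the 6 mice, from 4.33% of the reads of Cd3d in 1 such transcript to 27.1% of those of Cd8a in 1 and 26.9% and 1.55% of those of Zap70 in 2. For Cd2, a retained-intron transcript (Cd2-202) held 30.1 of 120 reads in mouse 5 and 6.57 of 72 in mouse 23, and 0 in the other 4 mice. The share of such reads was not compared between the genotypes by a test.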
